A study of Rattus norvegicus with 6 samples.

Results

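The Hippo pathway genes described here are 10 symbols chosen by name: Yap1, Wwtr1, Tead1, Tead2, Tead3, Tead4, Lats1, Lats2, Vgll4 and Amotl2. Exact matches to the row names of the deposited expression table found 9 of them among 18625 named genes, and Lats2 is not analysed here. RNA sequencing profiled freshly isolated rat pancreatic islets in 6 libraries, 3 labelled as fetal islet cells at embryonic day 19 (E19) and 3 as neonatal islet cells. The latter carry 2 weeks in their titles, but their age labels are postnatal week 2 for replicate 1, week 3 for replicate 2 and week 4 for replicate 3; they are called postnatal here. The study's design asks how the islet transcriptome differs between these stages. No strain, genotype, treatment or pooling is given, and nothing says that replicates were separate animals. The p-values given here therefore cover the spread among libraries alone, part of which may be technical. In the postnatal group part of it may also come from age, since each replicate has its own age label.

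The Hippo pathway is a kinase cascade that restrains organ growth. The kinases STK3 and STK4, with the adaptors SAV1 and MOB1, activate LATS1 and LATS2, which phosphorylate the coactivators YAP1 and TAZ (encoded by Wwtr1) and so keep them out of the nucleus. Unphosphorylated YAP1 and TAZ bind the TEAD transcription factors, which carry the DNA-binding domain, and switch on genes of growth, cytoskeleton and matrix. VGLL4 competes for TEAD, and angiomotins such as AMOTL2 hold YAP1 at junctions and in the cytoplasm. In the pancreas YAP1 is known from progenitors and ducts and is low in endocrine cells, and both coactivators are abundant in mesenchyme and endothelium. Phosphorylation, which sets the activity of most of these proteins, is not seen in RNA.

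Of the 9 members measured, Wwtr1 rose after birth, Yap1 and Tead2 fell, and 6 did not pass the test. Wwtr1 was 2.04-fold higher, Yap1 1.45-fold lower and Tead2 4.24-fold lower, so the 2 coactivator genes moved in opposite directions. The 3 called members make up 33.3% of the 9, whereas 63.1% of the 12926 genes tested were called (limma on log2(value + 1), Benjamini-Hochberg adjusted p under 0.05), 30.0% higher and 33.1% lower. All 9 members passed the filter on low values. The median log2 fold change was -0.03 for the members and -0.03 for all genes tested. Groups did not overlap for the same 3 members, against 70.0% of all genes tested. Values are read counts divided by a scaled library size (scaled CPM). Fold changes of log2(value + 1) come out too small for genes of low value.

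The libraries held 26.1 to 37.8 M reads, and 3 reads were worth 0.0726 to 0.152 scaled CPM. Each member rested on at least 37 reads in every library. The defining hormone genes of islets were measured in every library, but digestive enzyme transcripts were too. Acinar markers, summed over 15 of 16 listed genes, took more reads than the 7 hormone genes in every library: 72514 to 110463 scaled CPM before and 226313 to 666125 after birth, against 2048 to 5623 and 59992 to 110939. No marker measured was at or under 3 reads in all libraries. In bulk RNA, fewer cells of a type and less RNA per cell cannot be told apart. Fetal replicate 2 stood apart in its liver markers (7531, against 296 to 377 in the other fetal libraries), and postnatal replicate 1 in its acinar markers (666125, against 226313 and 248220).

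**Figure D1:**
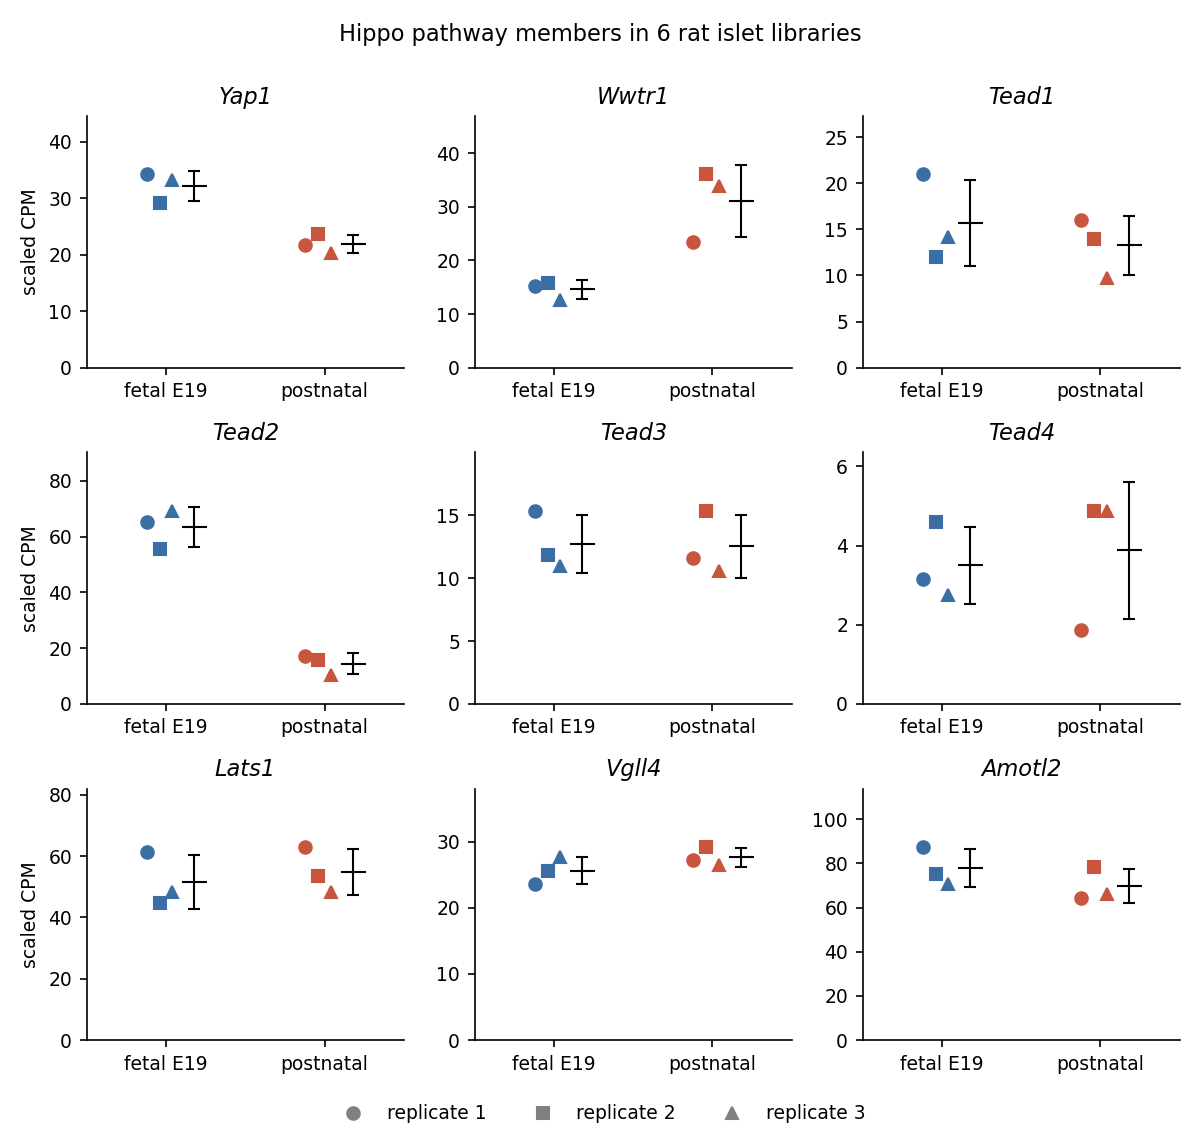
Scaled CPM of each member in the 6 libraries (points; marker shape gives the replicate), with mean and SD over 3 libraries beside them; each panel has its own axis from 0. Yap1 and Tead2 are lower and Wwtr1 higher in all postnatal libraries than in any fetal one, while the groups overlap in the 6 other panels.

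Yap1, the coactivator after which the branch is named, stood at 34.2, 29.1 and 33.2 scaled CPM in fetal replicates 1, 2 and 3 and at 21.8, 23.6 and 20.4 in postnatal replicates 1, 2 and 3. The lowest fetal library was above the highest postnatal one, and neither group held a library far from the others. The mean went from 32.2 ± 2.70 to 21.9 ± 1.63 (SD, n = 3 each), a log2 fold change of -0.53 ± 0.11 SE (limma adjusted p = 0.00395). The call held without any 1 library (-0.60 to -0.48, highest adjusted p = 0.0180).

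Wwtr1, encoding TAZ, moved the other way. It stood at 15.3, 15.8 and 12.6 in fetal replicates 1, 2 and 3 and at 23.5, 36.1 and 33.8 in postnatal replicates 1, 2 and 3. All postnatal libraries were above all fetal ones, and postnatal replicate 1 was the lowest of its group. The log2 fold change was 1.03 ± 0.18 (from 14.6 ± 1.73 to 31.1 ± 6.70; limma adjusted p = 0.00165), and 1.21 without postnatal replicate 1. Mesenchymal and stellate cell markers rose in the same libraries: 9 of the 10 measured were called higher, with a median log2 fold change of 1.39, and their sum was 1975 to 2884 in fetal and 7489 to 13101 scaled CPM in postnatal libraries. The sum was lowest of the postnatal libraries in replicate 1, where Wwtr1 was lowest too. Endothelial, hormone, endocrine factor, erythroid, leukocyte and Schwann cell sums were also lowest in that library, while acinar, duct, liver and proliferation sums were highest. All 9 endothelial markers measured rose as well (median 1.58; sums of 252 to 397 and 746 to 1178). Duct markers summed to 1255 to 1462 before and 802 to 1111 after birth, with 5 of 11 called lower and 1 higher. Of all genes tested, 30.0% were called higher and 33.1% lower. The called share of the duct list, 54.5%, was under the 63.1% of all genes. The part of these cell types in the changes of Wwtr1 and Yap1 was not tested.

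Read counts per gene depend on transcript length, so levels of different genes were not compared, but a ratio of paralogs within a library can be followed between libraries, and the scaling of the library cancels in it. The ratio of Wwtr1 to Yap1 was 0.448, 0.544 and 0.380 in fetal replicates 1, 2 and 3 and 1.08, 1.53 and 1.66 in postnatal replicates 1, 2 and 3. Every postnatal ratio was above every fetal one. The ratio rose 3.09-fold, or by 1.63 on the log2 scale. A two-sided exact permutation test on the 6 ratios gave p = 0.1, the smallest that 3 libraries against 3 allow, and 0.2 after Benjamini-Hochberg adjustment over the 4 paralog ratios computed.

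Among the TEAD genes, whose proteins bring YAP1 and TAZ to DNA, the test called Tead2 and none of the others. Tead2 stood at 65.3, 55.6 and 69.3 in fetal replicates 1, 2 and 3 and at 17.3, 15.9 and 10.2 in postnatal replicates 1, 2 and 3. The lowest fetal value was more than 3 times the highest postnatal one. The mean fell from 63.4 ± 7.07 to 14.5 ± 3.72 (log2 fold change -2.08 ± 0.19; limma adjusted p = 1.02e-04), and 1.85% of all genes tested had a lower log2 fold change. Its fall was between -2.22 and -1.87 when any 1 library was left out. Proliferation markers fell in the same libraries: all 7 measured were called lower (median -2.58), against 33.1% of all genes tested. Their sum was 3321 to 4453 in fetal and 602 to 776 in postnatal libraries. The part of dividing cells in the fall of Tead2 was not tested.

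Tead1, the family member used as the base of the TEAD ratios, stood at 21.0, 12.1 and 14.2 in fetal and at 16.0, 14.0 and 9.73 in postnatal replicates 1, 2 and 3. The groups overlapped, with the highest value in fetal replicate 1 and the lowest in postnatal replicate 3. The log2 fold change of -0.22 had a 95% interval of -0.78 to 0.33 (limma adjusted p = 0.438). It was -0.01 without fetal replicate 1 and -0.38 without fetal replicate 2.

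Tead3 stood at 15.4, 11.9 and 11.0 in fetal and at 11.6, 15.4 and 10.6 in postnatal replicates 1, 2 and 3. One library of each group was near 15 and the others near 11, so the groups covered the same range (-0.03, 95% interval -0.45 to 0.39; limma adjusted p = 0.904). Tead4 stood at 3.16, 4.60 and 2.74 in fetal and at 1.87, 4.89 and 4.88 in postnatal replicates 1, 2 and 3. Postnatal replicate 1, the library with 37 reads for this gene, was the lowest of the 6 and the other postnatal libraries the highest. The log2 fold change of 0.06 had a 95% interval of -0.65 to 0.78 (limma adjusted p = 0.867). Without both fetal replicate 2 and postnatal replicate 1 it was 0.58 and called (limma adjusted p = 0.0338).

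The ratio of Tead2 to Tead1 was 3.12, 4.61 and 4.89 in fetal replicates 1, 2 and 3 and 1.08, 1.14 and 1.05 in postnatal replicates 1, 2 and 3. The groups did not overlap, and the postnatal ratios lay within a narrow range although both genes varied between those libraries. The ratio fell by 1.92 on the log2 scale, or 3.79-fold (exact permutation p = 0.1, 0.2 adjusted over 4 ratios). The ratios of Tead3 and of Tead4 to Tead1 overlapped between the groups, with changes of 0.21 (exact permutation p = 0.4) and 0.29 (exact permutation p = 0.8) on the log2 scale. The change of the Tead4 ratio was -0.14 without postnatal replicate 3.

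**Figure D2:**
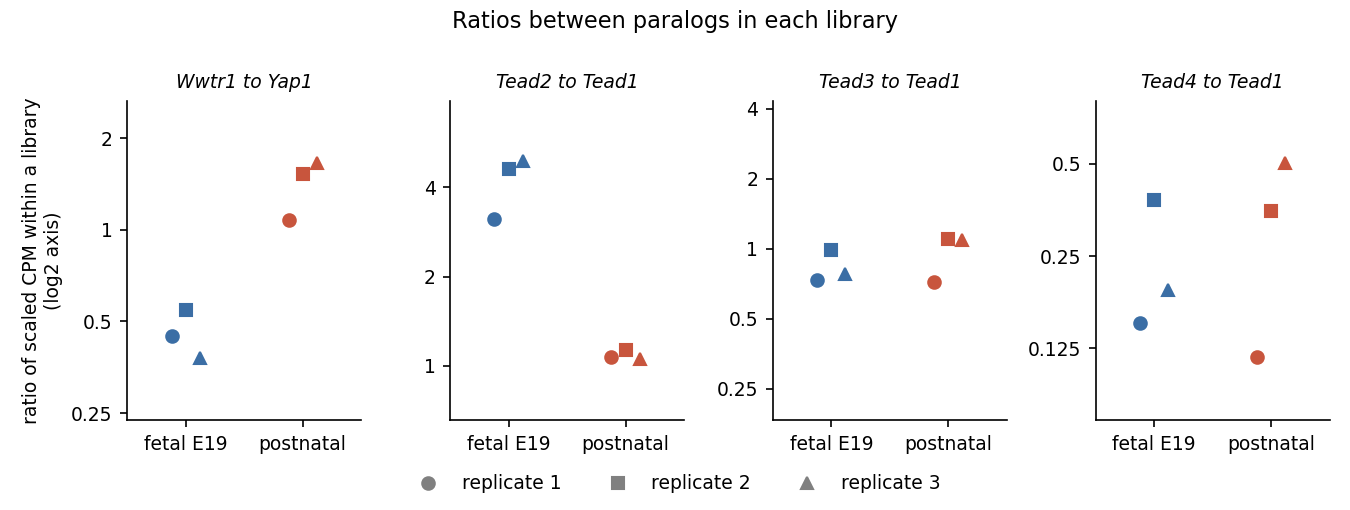
Ratio of scaled CPM of 2 paralogs within each library on a log2 axis, for 3 fetal and 3 postnatal libraries (marker shape gives the replicate). Wwtr1 to Yap1 is higher and Tead2 to Tead1 lower in all postnatal libraries than in any fetal one, and the 2 other ratios overlap. Transcript length is not taken into account, so a ratio of 1 does not mean equal levels of the 2 genes.

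The members that restrain YAP1 and TAZ did not pass the test. Lats1, the kinase gene at the end of the cascade, stood at 61.4, 44.8 and 48.2 in fetal and at 63.1, 53.4 and 48.4 in postnatal replicates 1, 2 and 3. Replicate 1 was the highest of each group, and the groups overlapped (0.10, 95% interval -0.25 to 0.44; limma adjusted p = 0.593). Vgll4, encoding the competitor of YAP1 for TEAD, stood at 23.6, 25.6 and 27.7 in fetal and at 27.2, 29.3 and 26.5 in postnatal replicates 1, 2 and 3. Its values spanned the narrowest range of the 9 members relative to their mean, and the 95% interval of its log2 fold change was -0.14 to 0.35 (estimate 0.11; limma adjusted p = 0.400).

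Amotl2, an angiomotin gene that is also a known target of YAP1 and TEAD, stood at 87.6, 75.4 and 70.8 in fetal and at 64.3, 78.4 and 66.2 in postnatal replicates 1, 2 and 3. The highest value was fetal and the lowest postnatal, with overlap between them (-0.16, 95% interval -0.44 to 0.12; limma adjusted p = 0.279). For none of these 3 genes does the missed threshold show that the level was the same. A change of 2-fold in log2(value + 1) lay outside the 95% interval of each of the 6 members that did not pass.

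**Figure D3:**
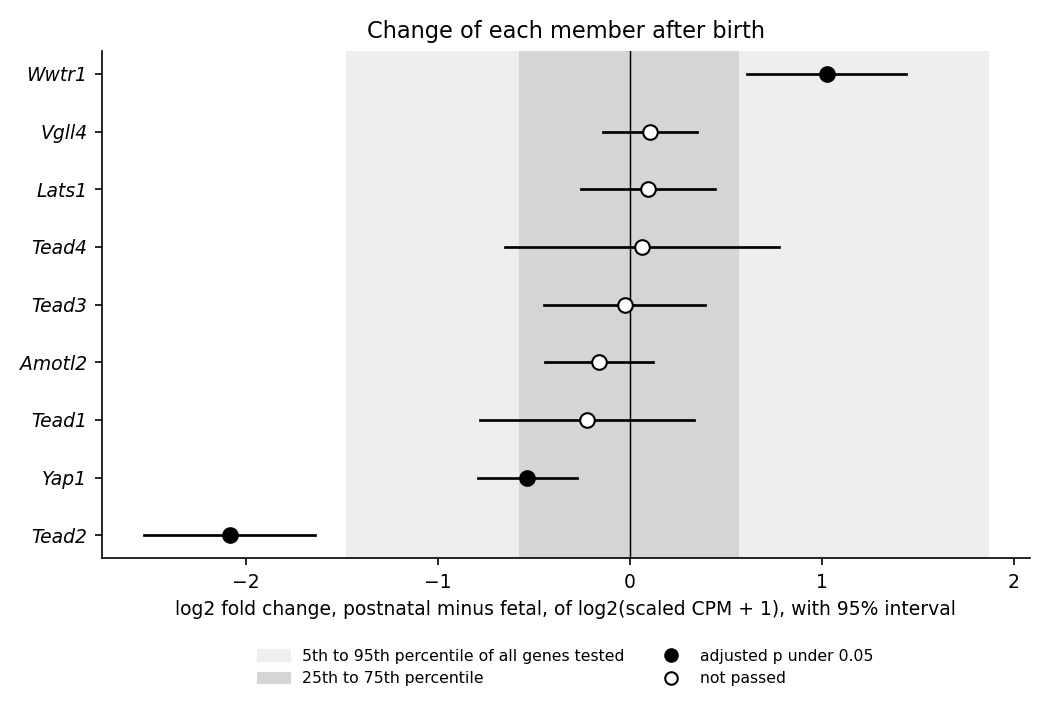
Log2 fold change of each member (postnatal minus fetal, of log2(scaled CPM + 1)) with its 95% interval from limma; filled points passed an adjusted p under 0.05, and grey bands show percentiles of all 12926 genes tested. Wwtr1 lies above 0, Yap1 and Tead2 lie below 0, and the intervals of the 6 other members include 0.

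The direction of these calls was read against the scaling between libraries, because digestive enzyme transcripts took a large and changing part of the reads. Scaling to the total moved the median of all genes tested by -0.33 and scaling without the 20 highest genes by 0.22 from the value under the deposited scaling, while upper quartile scaling moved it by 0.12. Calls over all genes went from 3874 higher and 4278 lower to 1780 and 5088 under the first and to 5065 and 3213 under the second. Yap1 remained lower under all 5 scalings, with log2 fold changes of -0.87 and -0.30 under these 2, and its call was lost under the second (limma adjusted p = 0.0770). Wwtr1 remained higher under all 5, at 0.69 and 1.26, and its call was lost under the first (limma adjusted p = 0.0831). Tead2 was called lower under each of them. Relative to the median of all genes, Yap1 was at -0.51 to -0.50, Wwtr1 at 1.05 to 1.06 and Tead2 at -2.07 to -2.05 under the 5 scalings. These ranges are narrow by construction, since a scaling shifts all genes by nearly the same amount, so they give the position among all genes and say nothing of stability. Vgll4 was called higher at 0.34 after scaling without the 20 highest genes (limma adjusted p = 0.0205), and the estimates of Tead3, Tead4, Lats1, Vgll4 and Amotl2 changed sign under at least 1 scaling.

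**Figure D4:**
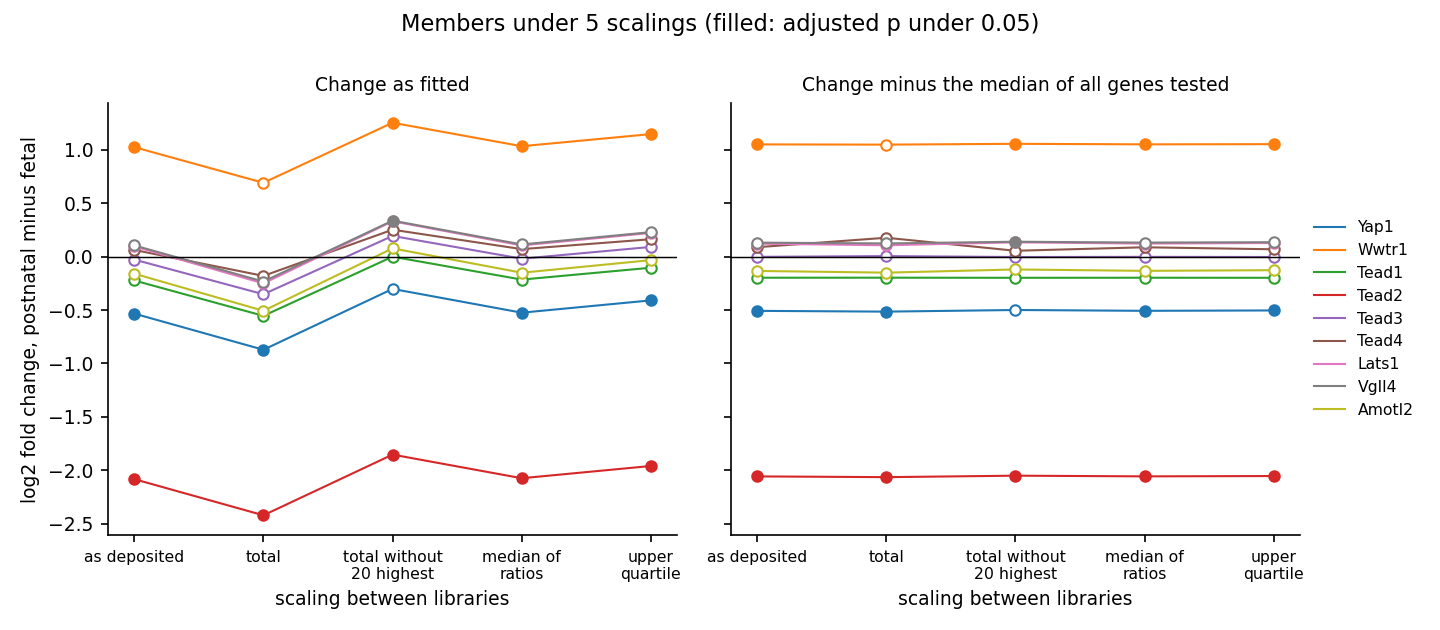
Log2 fold change of the 9 members under 5 scalings between libraries, as fitted (left) and after subtracting the median of all genes tested (right); filled points passed an adjusted p under 0.05. The lines move up and down together on the left and are nearly flat by construction on the right, where Wwtr1 stays at 1.05 to 1.06, Yap1 at -0.51 to -0.50 and Tead2 at -2.07 to -2.05.

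The other genes of the pathway were taken from 6 lists by role, in which 95 of 109 distinct genes were in the table and 93 were tested. Of these, 21 were higher and 29 lower, 53.8% in all against 63.1% of all genes tested. Their median log2 fold change was 0.05, against -0.03 for all genes. The lists were drawn up from general knowledge of the pathway, and no list was compared with other genes by a test.

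Among 15 core kinases and adaptors, 5 rose, 1 fell and 9 did not pass (median 0.20). The called share was 40%, against 63.1% of all genes tested (30.0% higher and 33.1% lower). Stk3 and Stk4, the kinases upstream of LATS, stood at 37.2 to 44.2 and 40.4 to 42.8 in fetal and at 34.3 to 35.6 and 34.1 to 37.9 in postnatal libraries. For both, every postnatal library was below every fetal one, yet the log2 fold changes of -0.23 and -0.22 did not pass (limma adjusted p = 0.0804 and 0.0701). Stk3 was called lower without fetal replicate 1, at -0.29 (limma adjusted p = 0.0379), and after scaling to the total, at -0.57 (limma adjusted p = 0.0403). Their adaptor gene Sav1 stood at 37.5 ± 3.22 and 37.1 ± 3.56. Map4k2, a kinase of the germinal centre kinase family, showed the largest rise of the list, from 9.28 to 11.3 in fetal to 23.0 to 32.9 in postnatal libraries (1.33 ± 0.16; limma adjusted p = 2.84e-04). The largest fall was that of Map4k1, a relative best known from blood cells, from 6.54 to 7.68 in fetal to 2.25 to 5.16 in postnatal libraries (-0.87 ± 0.24). Erythroid markers fell in the same libraries, 6 of 8 measured, against 33.1% of all genes tested. Of these, Hbe1 entered the test through the fetal group, where it was high. Of 10 macrophage and leukocyte markers 3 rose, the same share as the 30.0% of all genes, and 7 did not pass. The part of these cells in the values of Map4k1 was not tested. Rises numbered 3 without fetal replicate 2 and between 2 and 9 under the other scalings, and falls numbered 2 without fetal replicate 1.

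Of 24 upstream scaffolds and polarity genes tested, the longest of the 6 lists, 14 fell, 2 rose and 8 did not pass. The called share was 66.7%, against 63.1% of all genes tested (33.1% lower and 30.0% higher), and the median was -0.41, against -0.03 for all genes. Of the duct markers, 5 of 11 fell in the same libraries, among them the keratin gene Krt19 (-1.36) and the adhesion gene Epcam (-1.24). Of the other duct markers, 1 rose and 5 did not pass. The part of duct cells in the falls of the polarity list was not tested. The fallers included Prkci, encoding the polarity kinase aPKC iota (from 152 ± 5.68 to 74.2 ± 8.29; -1.03 ± 0.11), the Crumbs gene Crb3 (-0.94 ± 0.15), the E-cadherin gene Cdh1 (-0.52 ± 0.17) and Wwc1, encoding the LATS activator KIBRA (-0.74 ± 0.21). Fat2, of the FAT family of protocadherins, showed the largest fall, from 16.9 ± 3.24 to 6.77 ± 3.52 (-1.29 ± 0.32; limma adjusted p = 0.00939). Frmd6, encoding a FERM-domain protein that can activate the kinases, rose most, from 16.3 ± 1.74 to 33.4 ± 4.11 (0.99 ± 0.13), and Dchs1, a ligand of FAT4, rose by 0.81 ± 0.22. Nf2, encoding merlin, stood at 52.6 ± 2.94 and 60.6 ± 1.34 without overlap and did not pass (limma adjusted p = 0.0789). It was called higher with edgeR (adjusted p = 0.0433) and DESeq2 (adjusted p = 0.0318). By limma it was called after upper quartile scaling (adjusted p = 0.0139) and scaling without the 20 highest genes (adjusted p = 0.00814), and in no other alternative. Scaling without the 20 highest genes left 6 falls and 4 rises.

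Genes for retention and turnover of YAP1 and TAZ gave 4 falls and 2 rises in 13 (median -0.08). The called share was 46.2%, against 63.1% of all genes tested (30.0% higher and 33.1% lower). Amot, the angiomotin paralog of Amotl2, stood at 23.1, 23.3 and 23.1 in fetal and at 9.31, 9.74 and 9.56 in postnatal replicates 1, 2 and 3. Its groups were far apart relative to their spread (-1.20 ± 0.10; limma adjusted p = 7.68e-05), in contrast to the overlapping groups of Amotl2, though the difference between the paralogs was not tested. The other fallers were 3 Ywha genes, Ywhae (-1.05 ± 0.10), Ywhaz (-0.70 ± 0.11) and Ywhab (-0.56 ± 0.09), whose proteins bind phosphorylated YAP1 in the cytoplasm. Ywhag stood at 78.8 ± 8.60 and 79.8 ± 11.8. The tight junction gene Tjp1 rose from 139 ± 7.03 to 185 ± 7.12 (0.41 ± 0.09), a call lost when libraries were scaled to the total (0.06; limma adjusted p = 0.838), and Btrc, a ubiquitin ligase adaptor gene, rose by 0.30 ± 0.11. The phosphatase gene Ptpn14 stood at 17.2 ± 2.44 and 18.5 ± 2.54. The number of rises was 1 without fetal replicate 1, 2 or 3 or postnatal replicate 2 or 3, and 3 without postnatal replicate 1.

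The STRIPAK complex is a phosphatase assembly that switches off STK3 and STK4. Of 15 genes, 6 fell, 3 rose and 6 did not pass (median -0.10). The called share was 60%, near the 63.1% of all genes tested (30.0% higher and 33.1% lower). The catalytic and scaffold subunit genes of the phosphatase were all lower: Ppp2ca (-0.61 ± 0.10), Ppp2r1a (-0.48 ± 0.09), Ppp2cb (-0.46 ± 0.10) and Ppp2r1b (-0.25 ± 0.09). The kinase gene Stk26 fell most, from 14.7 ± 1.65 to 6.70 ± 0.703 (-1.03 ± 0.14), and Cttnbp2nl rose most, from 23.3 ± 2.37 to 39.1 ± 5.71 (0.72 ± 0.14). Slmap, which ties the complex to STK3 and STK4, rose by 0.61 ± 0.10. After scaling without the 20 highest genes 2 fell and 5 rose, and after scaling to the total 6 fell and none rose, where the rise of Cttnbp2nl had an adjusted p of 0.276 by limma.

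Of 11 tested TEAD cofactors, 3 rose, 3 fell and 5 did not pass (median 0.33). The called share was 54.5%, against 63.1% of all genes tested (30.0% higher and 33.1% lower). Vgll3, a relative of Vgll4 that binds TEAD, stood at 0.860, 1.02 and 0.956 in fetal replicates 1, 2 and 3 and at 3.29 to 6.61 in the postnatal ones, a log2 fold change of 1.56 ± 0.22. Of its fetal libraries 1 reached the minimum value of 1, so the gene entered the test through the postnatal group, where it was high. Its place among the 3 rises is therefore a description only. The corepressor gene Irf2bp2 rose from 47.0 ± 2.87 to 77.2 ± 4.90 (0.70 ± 0.10), a call lost when libraries were scaled to the total (0.36; limma adjusted p = 0.218), and Smarca4, encoding the remodelling ATPase BRG1, fell from 327 ± 23.8 to 153 ± 19.9 (-1.10 ± 0.12). Vgll2 was at 0 or 1 read in every library. Rises numbered 5 without fetal replicate 1 or postnatal replicate 1, and 1 fall was left without any 1 fetal library.

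Target genes of YAP1 and TAZ known from many cell types made up a list of 20, of which 16 were tested. Of these, 6 rose, 1 fell and 9 did not pass. The called share was 43.8%, against 63.1% of all genes tested (30.0% higher and 33.1% lower), and the median was 0.39, against -0.03. The best-known targets did not pass. Ccn1, encoding the matrix protein CYR61, stood at 203, 166 and 118 in fetal and at 150, 220 and 251 in postnatal replicates 1, 2 and 3. Ccn2, encoding CTGF, stood at 44.5, 27.5 and 27.0 and at 33.5, 46.9 and 52.7, and the cardiac ankyrin repeat gene Ankrd1 at 3.07 ± 0.216 and 3.51 ± 0.448. For each of them the groups overlapped, with log2 fold changes of 0.35 (95% interval -0.22 to 0.92), 0.43 (-0.11 to 0.97) and 0.14 (-0.19 to 0.48). Without postnatal replicate 1, Ccn1 and Ccn2 were called higher, at 0.57 and 0.62 (limma adjusted p = 0.0499 and 0.0366), and without fetal replicate 1 Ccn2 was called at 0.66.

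The targets that rose did so by larger factors. Ccdc80, encoding a matrix protein of stromal cells, stood at 36.8 to 62.8 in fetal and at 225 to 380 in postnatal libraries (2.68 ± 0.24; limma adjusted p = 9.76e-05). Crim1 rose by 2.01 ± 0.24, the ectonucleotidase gene Nt5e by 1.98 ± 0.10, Myof, encoding myoferlin, by 1.83 ± 0.27 and the receptor tyrosine kinase gene Axl by 1.61 ± 0.22. The tissue factor gene F3 rose by 0.63 ± 0.22 with overlapping groups. Of the 10 mesenchymal markers measured in the same libraries, 9 rose, against 30.0% of all genes tested. Their rises ran from Pdgfrb at 0.86 to Lum at 3.28 with a list median of 1.39, and Vim, at 0.54, did not pass. Whether the target genes follow those cells was not tested. Fjx1, encoding a kinase-like regulator related to Four-jointed, was the target that fell, from 10.3 ± 1.63 to 5.08 ± 0.842 (-0.90 ± 0.17). The number of rises was 9 without postnatal replicate 1.

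**Figure D5:**
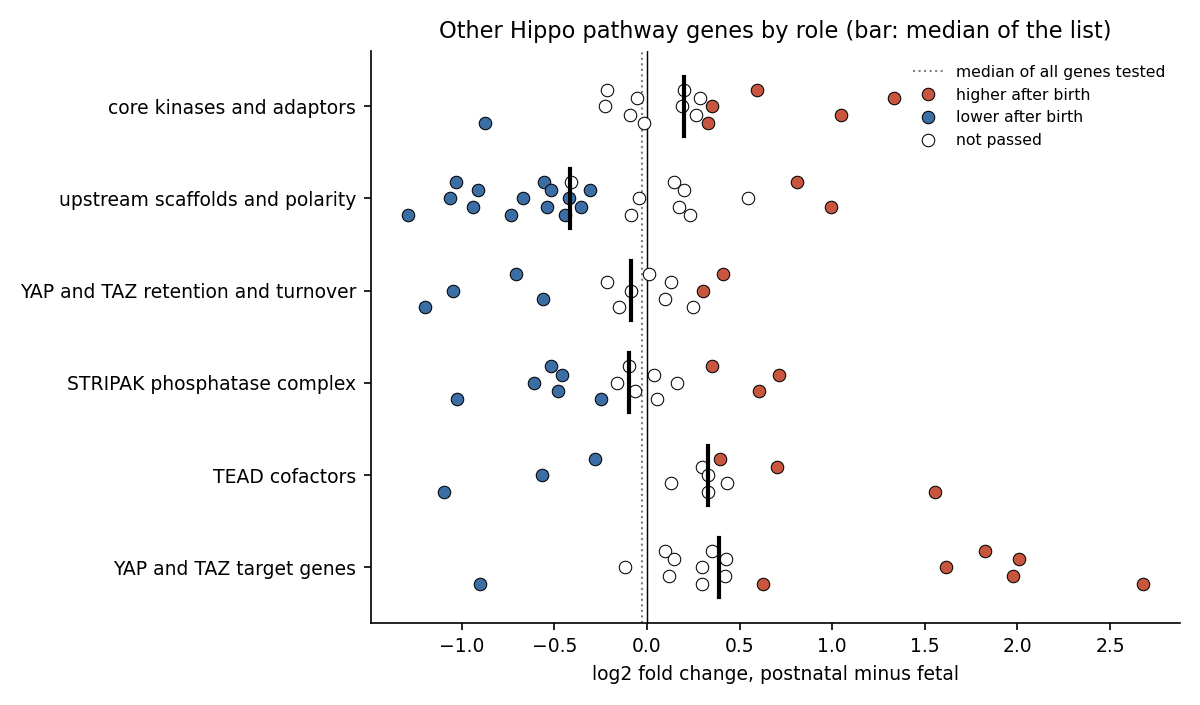
Log2 fold change (postnatal minus fetal) of the tested genes of 6 pathway lists, each point a gene, filled where it passed an adjusted p under 0.05 (red higher, blue lower); bars give list medians and the dotted line the median of all genes tested. The polarity list lies mostly below 0 (14 of 24 lower), and the target list extends to 2.68 on the right while its median is 0.39.

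TEAD proteins bind the letters GGAATG, read as CATTCC on the other strand, and the promoters of Ccn1, Ccn2, Amotl2 and Yap1 are shown because they hold this motif and bear on the main members and their best-known targets. The 250 bases before the start of each gene are given 5′ to 3′ on the strand of the gene, from RefSeq (assembly GRCr8), with the motif in capitals. The positions are chr2:237225690-237225939 (minus strand) for Ccn1, chr1:22624615-22624864 (minus) for Ccn2, chr8:112182376-112182625 (plus) for Amotl2 and chr8:13451438-13451687 (minus) for Yap1.
Ccn1: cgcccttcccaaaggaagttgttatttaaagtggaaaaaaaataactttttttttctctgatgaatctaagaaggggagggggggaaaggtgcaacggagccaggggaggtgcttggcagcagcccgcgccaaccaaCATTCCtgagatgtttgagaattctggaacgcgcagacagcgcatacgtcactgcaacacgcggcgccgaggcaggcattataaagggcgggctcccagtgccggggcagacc
Ccn2: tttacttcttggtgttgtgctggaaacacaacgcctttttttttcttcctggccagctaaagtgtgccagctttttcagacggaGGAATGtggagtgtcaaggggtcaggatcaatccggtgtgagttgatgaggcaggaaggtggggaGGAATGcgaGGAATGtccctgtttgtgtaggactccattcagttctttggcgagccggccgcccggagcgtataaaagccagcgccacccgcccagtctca
Amotl2: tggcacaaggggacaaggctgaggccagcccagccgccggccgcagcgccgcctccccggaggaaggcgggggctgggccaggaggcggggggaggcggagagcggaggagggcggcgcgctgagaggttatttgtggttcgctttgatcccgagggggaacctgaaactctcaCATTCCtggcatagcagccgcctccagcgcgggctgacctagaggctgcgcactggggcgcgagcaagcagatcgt
Yap1: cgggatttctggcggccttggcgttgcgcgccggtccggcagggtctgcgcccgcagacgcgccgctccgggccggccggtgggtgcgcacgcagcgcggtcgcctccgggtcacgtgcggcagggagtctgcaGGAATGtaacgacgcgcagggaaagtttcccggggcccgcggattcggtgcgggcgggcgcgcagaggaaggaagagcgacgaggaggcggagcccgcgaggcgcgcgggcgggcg

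Ccn2 has 3 copies, which begin 166, 101 and 92 bases before the start and do not overlap. Ccn1 has 1 copy 113 bases before its start, Amotl2 has 1 at 76 bases and Yap1 has 1 at 116 bases. Either form of the motif was found in 12.1% of the 33469 promoters in the RefSeq table over the same 250 bases, and 0.0807% held at least 3 copies. Promoters were matched for 6 of the 10 members and 14 of the 20 target genes, and the motif occurred in 3 members (Amotl2, Vgll4 and Yap1) and 4 targets (Ccn1, Ccn2, Nuak2 and Ptpn14). None of these 4 targets passed the test between fetal and postnatal libraries, nor did Amotl2 and Vgll4, whereas Yap1 fell. Of all genes tested, 63.1% passed. The motif counts of members and targets are per gene, over any of its promoters, whereas the 12.1% is a share of promoters. A match of 6 letters is a description of the sequence and does not show that a TEAD protein binds there in islets.

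The genes most like Yap1, Wwtr1 and the 4 TEAD genes in pattern were found by the mean absolute difference of centred log2(value + 1) over the 6 libraries; this was not done for Lats1, Vgll4 and Amotl2. For Yap1, among 5767 genes with a mean of at least 5 and a group difference of at least 0.5, the nearest were Men1, encoding menin (difference 0.03; log2 fold change -0.53), Hdhd5, Carmil1, Polr3e and Cep250, which all fell, by 0.53 to 0.60 on the log2 scale. For Tead2 the nearest were E2f8, an E2F family transcription factor gene (0.04; from 27.4 ± 2.06 to 5.89 ± 1.67), and the kinesin gene Kifc1 (0.09). Tead1 was nearest to Ankrd52 and Pom121, Tead3 to Agrn and Fblim1, and Tead4 to Plin2 and Ripk3, none of which passed the test. The genes nearest to Wwtr1, sought after its values were seen, were the TNF receptor gene Tnfrsf1a (0.04; 1.02), Lix1l, the proprotein convertase gene Pcsk5, RGD1562339 and the protease inhibitor gene Reck, which all rose. With 6 libraries in 2 groups, such likeness mostly reflects the difference between the groups. The genes were picked for this likeness, so their directions, and largely their calls, follow from the choice and are a description only.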

How the data were processed

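Total RNA from isolated rat islets was sequenced as 6 stranded, ribosomal-RNA-depleted libraries, per the labels' protocols; TopHat2 2.0.8b and edgeR 3.30.3 are named without roles, per the submitters' processing notes. The build, annotation, counter and strand setting were not given in the sources used here. Reads of overlapping or antisense genes may therefore be mixed. The authors deposited 1 normalized signal per gene without a named unit. Each value is a whole number of reads times 1 constant per library (100% whole within 0.001 reads), and these constants imply CPM of a library size multiplied by 0.677 to 1.25, called scaled CPM. An unnamed row of 1 to 9 reads was left out of the tests.

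The test used log2(value + 1) in limma 3.58.1 (R 4.3.3; trend, group only, two-sided) over genes with at least 1 in at least 3 libraries, adjusted by Benjamini-Hochberg over all genes; the recovered reads served for edgeR 4.0.16 and DESeq2 1.42.0 as alternatives. Paralog ratios, 4 of 5 planned since Lats2 was not analysed, used an exact permutation test. Named genes were the members, 11 fixed pathway genes (Mob1a is not analysed here), the largest called rise and fall of each list (higher group's mean 5 or more) and the genes nearest in pattern; further genes in the text illustrate their lists and were chosen after their values were seen. Members, lists and alternatives were chosen with earlier results of these data known. Replicate libraries differed by more than counting error (49.7 to 411 as chi-square over its degrees of freedom), so none was merged. In 20 simulated data sets (median 12944 genes), 200 genes were changed, and every gene had the same dispersion of 0.04. There limma found 73.8% (median) of 2-fold and 100% of 4-fold changes. In the real data 63.1% of genes tested were called and the spread was not fixed, so these rates need not hold for them.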

Additional observations from a re-analysis of the deposited data

How the results depend on the processing

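Over 21 alternatives, Tead2 was called lower in all (-2.42 to -1.83), and Yap1 (-0.87 to -0.30) and Wwtr1 (0.69 to 1.27) kept their direction and were called in 20 each. Other filters, the robust trend, the replicate block and the labelled week left the fold changes unchanged by construction, so these numbers overstate stability. Yap1 lost its call after scaling without the 20 highest genes and Wwtr1 after scaling to the total. Members called higher numbered none after scaling to the total and 2 after scaling without the 20 highest genes or without both fetal replicate 2 and postnatal replicate 1; members called lower numbered 1 after scaling without the 20 highest genes. Over all genes, 1780 were higher after scaling to the total against 3874. edgeR called 4060 higher and 4068 lower, and DESeq2 4206 and 4160.

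For the pathway lists, scaling to the total gave 2 core kinase and adaptor genes higher and 2 lower, 1 upstream gene higher, 0 retention genes higher, 0 STRIPAK genes higher and 1 TEAD cofactor higher. Scaling without the 20 highest genes gave 9 core genes higher, 4 upstream genes higher and 6 lower, 5 STRIPAK genes higher and 2 lower, and 6 cofactors higher and 1 lower. Upper quartile scaling gave 8 core genes, 4 upstream genes and 5 cofactors higher and 1 cofactor lower. edgeR and DESeq2 each gave 4 upstream genes higher. Without both fetal replicate 2 and postnatal replicate 1, there were 3 core genes, 1 retention gene and 1 cofactor higher. With any 1 library left out, core genes numbered 3 to 6 higher and 1 to 2 lower, retention genes 1 to 3 higher, cofactors 3 to 5 higher and 1 to 3 lower, target genes 5 to 9 higher. The change of the Tead4 to Tead1 ratio was -0.14 to 0.91 with 1 library left out and 1.29 without both libraries named above, and the other ratios kept their direction. The cause of these moves was not tested.

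With the replicate number as a block, the members' calls were 1 higher and 2 lower as without it, 1 retention gene was higher and 1 cofactor lower, and 3563 genes were higher and 3863 lower overall. Deviations of same-numbered libraries from their group means correlated at -0.21, 0.10 and -0.25 for numbers 1, 2 and 3. Those of differently numbered libraries correlated at -0.36 to 0.43. Deviations from a mean of 3 libraries depend on each other, so these values cannot show whether the numbers pair the libraries. With the labelled postnatal week as a covariate, 1 member was called higher and 2 lower. Fetal libraries were set to the mean postnatal week, so this covariate could change the spread but not the fold changes. It therefore cannot show whether the calls depend on age. Depth limits Tead4 most, at 37 to 190 reads.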
